A study of Mus musculus with 401 samples.

Results

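The 10 genes described here control how cells enter and leave the division cycle: the cyclin-dependent kinase inhibitors Cdkn1a, Cdkn1b, Cdkn2a, Cdkn2b, Cdkn2c and Cdkn2d, the tumour suppressor gene Trp53 and its ligase Mdm2, the D-type cyclin Ccnd2 and the antiproliferative gene Btg2. They were taken by symbol and Ensembl identifier, and all 10 were listed in both count tables, which together hold 43633 genes. Single oocytes and the pool of cumulus cells around each were measured by RamDA-seq, which copies total RNA along whole transcripts, in female B6D2F1 (C57BL/6 x DBA/2) mice. The oocytes came from fully grown follicles and were at the germinal vesicle stage. The first set of samples held mice fed ad libitum at 2 months (Young, 2 mouse labels), 9 months (Middle, 4) and 14 months (Old, 2, of which Old1_2 joins 2 mice), and mice under calorie restriction until 9 months (CR, 3). The second held mice fed ad libitum at 2 months (2mo, 5), 4 months (4mo, 8), 9 months (9mo, 4) and 14 months (14mo, 5) and mice at 2 months without hyperovulation (2moNoH, 8). All other groups had been given eCG or CARD HyperOva to raise the number of growing follicles, and which of these agents a mouse received is not given in the labels used here. So the ages were compared only in stimulated mice, and calorie restriction only at 9 months.

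Both families of inhibitors hold back the kinases that drive division. The CIP/KIP proteins p21 (Cdkn1a) and p27 (Cdkn1b) bind many cyclin and kinase pairs, while the INK4 proteins p16 (Cdkn2a), p15 (Cdkn2b), p18 (Cdkn2c) and p19 (Cdkn2d) bind the partners of the D-type cyclins, and Cdkn2a also encodes ARF, which restrains Mdm2. The transcription factor p53 induces Cdkn1a, Btg2 and Mdm2, and Mdm2 in turn marks p53 for degradation. In the follicle, cyclin D2 is induced by follicle-stimulating hormone and carries granulosa cell division, whereas the fully grown oocyte does not divide and rests in prophase of meiosis. A rise of Cdkn1a, Cdkn2a and Cdkn2b is widely used as a mark of senescent cells.

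After 1 complex of the Middle group was left out, 73 oocyte and 71 cumulus libraries of the first set and 127 and 128 of the second were used. The oocyte library of that complex was nearer to the mean of cumulus cells (Spearman's rho 0.818) than to that of oocytes (0.7475), so results of the Middle group are given with and without it where it mattered. The counts of all libraries of 1 mouse label and cell type were summed, and levels are given in CPM, counts scaled to a common library total after TMM normalization. Median totals per library ran from 854688 to 2019007 counts in cumulus cells and from 1986202 to 3578882 in oocytes, with the CR libraries deepest in both. Sums of markers per mouse are given in CPM without TMM scaling. Those of 13 cumulus markers were 4728.71 to 15208.05 CPM in cumulus cells and 75.31 to 785.25 CPM in oocytes. Oocyte markers summed to at most 47.91 CPM in cumulus cells. A gene was called at an adjusted p under 0.05 in edgeR's quasi-likelihood test over all genes tested.

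The bases just upstream of 3 of these genes are shown, because Cdkn1b and Mdm2 were the members called under calorie restriction in oocytes and Btg2 had the smallest DESeq2 adjusted p with hyperovulation in cumulus cells. They are the 250 bases before the RefSeq transcript start on GRCm38.p6, read on the strand of the gene. Capitals mark matches on either strand to any of 6 short motifs. The CRE half-site, bound by cAMP-responsive factors, was searched as TGACG. The GC box, bound by the Sp family of factors, was searched as GGGCGG. The box bound by the factor NF-Y was searched as CCAAT. The E-box, bound by helix-loop-helix factors, was searched as CACGTG. The motif of the forkhead factors of the FOXO family was searched as GTAAACA. The box bound by the general factor TBP was searched as TATAAA.
Cdkn1b, plus strand, chr6:134920151-134920400: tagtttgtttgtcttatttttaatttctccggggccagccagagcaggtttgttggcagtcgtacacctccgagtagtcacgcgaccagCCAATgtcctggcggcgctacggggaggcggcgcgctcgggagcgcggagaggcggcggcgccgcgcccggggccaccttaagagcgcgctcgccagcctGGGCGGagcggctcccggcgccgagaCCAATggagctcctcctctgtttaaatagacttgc
Mdm2, minus strand, chr10:117710759-117711008: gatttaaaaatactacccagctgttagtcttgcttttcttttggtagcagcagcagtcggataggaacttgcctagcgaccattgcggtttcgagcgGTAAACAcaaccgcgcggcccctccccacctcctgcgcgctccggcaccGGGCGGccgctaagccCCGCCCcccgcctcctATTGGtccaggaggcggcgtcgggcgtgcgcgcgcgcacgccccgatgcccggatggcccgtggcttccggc
Btg2, minus strand, chr1:134079156-134079405: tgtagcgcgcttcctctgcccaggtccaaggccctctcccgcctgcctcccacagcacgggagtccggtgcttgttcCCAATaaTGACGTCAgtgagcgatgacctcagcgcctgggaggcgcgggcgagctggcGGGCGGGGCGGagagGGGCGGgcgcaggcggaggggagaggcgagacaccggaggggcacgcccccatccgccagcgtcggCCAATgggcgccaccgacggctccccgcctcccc
The Btg2 window held 2 CRE half-sites on opposite strands that overlap in 1 palindrome, 3 GC boxes, of which a pair overlap, and 2 CCAAT letters. The Cdkn1b window held 1 GC box and 2 CCAAT letters, and that of Mdm2 held 2 GC boxes, 1 CCAAT and 1 FOXO motif. Of 32851 windows of this length, 17.8% held a CRE half-site, 32.7% a GC box, 33.8% CCAAT, 6.0% an E-box, 3.2% the FOXO motif and 12.4% a TATA box. These are matches of letters, and no binding was measured.

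Per length, cumulus cells of 2mo mice were richest in Btg2 and Ccnd2 and poorest in the INK4 genes. In 2mo cumulus cells the authors' RPKM values, averaged per mouse, were 98.3 ± 22.9 for Btg2, 79.7 ± 8.72 for Ccnd2, 27.9 ± 3.50 for Cdkn1b and 26.6 ± 6.07 for Trp53 (SD, n = 5). Mdm2 followed at 11.8 ± 1.0 RPKM, Cdkn1a at 9.26 ± 3.32, Cdkn2c at 3.81 ± 0.453 and Cdkn2d at 3.12 ± 0.584. Btg2 and Ccnd2 overlapped between mice, as did Cdkn1b and Trp53, Mdm2 and Cdkn1a, Cdkn1a and Cdkn2c, and Cdkn2c and Cdkn2d, so neighbours in each of these pairs are not set apart. Ccnd2 ranked above Btg2 in Middle, Old and 14mo cumulus cells, at 95, 104 and 105 RPKM. The mean of Cdkn2c lay above that of Cdkn1a in Middle (5.11 and 3.87 RPKM) and Old (5.76 and 3.0 RPKM) cumulus cells.

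Oocytes had another order, led by Mdm2. In 2mo oocytes Mdm2 stood at 26.5 ± 1.12 RPKM, above Cdkn1b at 9.91 ± 0.687, Trp53 at 7.89 ± 0.817, Btg2 at 7.81 ± 0.976 and Ccnd2 at 3.04 ± 2.36 (SD, n = 5). Cdkn2c, Cdkn2d, Cdkn1a, Cdkn2b and Cdkn2a lay between 0.255 and 1.12 RPKM. By its mean, Mdm2 ranked first in the oocytes of all 8 groups fed ad libitum. It did not overlap with Cdkn1b in 2mo mice, while Trp53 and Btg2 overlapped. In Old oocytes it overlapped with Ccnd2, at 28.8 RPKM (26.3 to 31.2) beside 27.6 RPKM (9.18 to 46.1). RPKM values of the CR libraries were not used, since 7.9% of them matched the deposited counts within 1%, as against 100% in all other libraries.

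**Figure D1:**
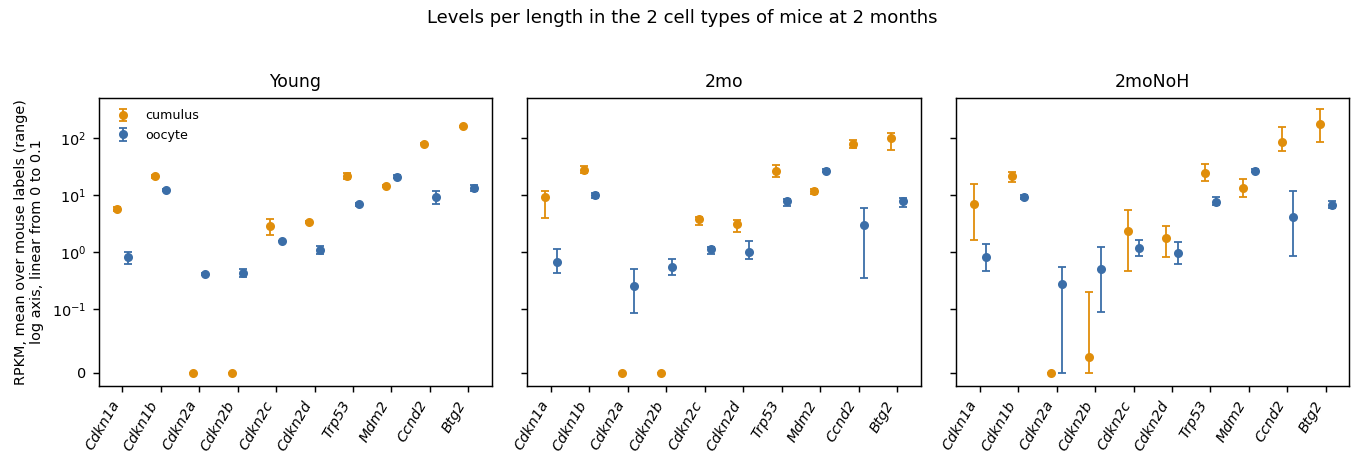
Levels of the 10 genes in RPKM (vertical axis, logarithmic above 0.1 and linear below) in cumulus cells and oocytes of Young, 2mo and 2moNoH mice. Points are means over mouse labels and bars span the lowest and highest label. Mdm2 is the gene highest in oocytes (26.5 RPKM in 2mo) and lies above its cumulus level in each panel, and Cdkn2a lies at 0 in cumulus cells.

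Oocytes were compared with the cumulus cells of the same mice. Cdkn2a and Cdkn2b, at or near 0 counts in these cumulus cells, passed the filter on low counts only through the oocytes and are described apart. Of the other 8 members edgeR called 8 in 2mo mice, 1 higher and 7 lower in oocytes, where 69.0% of all genes were called. Without hyperovulation 7 of the 8 were called (74.0% of genes), and in Young 5 of the 8 (54.8%). Since most genes are called between these cell types, the count says little about the members, and the sizes are given instead. A cumulus library is a pool of cells and an oocyte library 1 cell, so amounts per cell are not compared. The log2 differences come from 1 fit with TMM scaling over both cell types. Levels in CPM were scaled within each cell type, so ratios of them differ from the log2 differences. In the pool, fewer cells with a transcript and less of it per cell cannot be told apart.

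Mdm2 was the only member with substantial counts that was higher in oocytes. Its 2mo levels were 130, 129, 140, 144 and 131 CPM in oocytes and 62.5, 64.5, 53.4, 65.8 and 58.4 CPM in cumulus cells, with no overlap. The log2 difference was 1.67 (SE 0.14, adjusted p = 3.06e-17), and it was 1.5 in 2moNoH and 1.44 in Young mice. Taken as unscaled shares of the counts, the oocyte level of Mdm2 was 134% to 305% of the cumulus level over all mice of both sets.

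The other gene of the pair, Trp53, was lower in oocytes. Its 2mo levels were 32.4, 33.5, 34.3, 32.7 and 26.1 CPM in oocytes and 140, 130, 100, 88.7 and 83.4 CPM in cumulus cells, again without overlap. The log2 difference was -1.24 (SE 0.14) in 2mo, -1.19 in 2moNoH and -0.84 in Young mice, called in each. Ccnd2 and Btg2, the most abundant members in cumulus cells, were lower in oocytes by the largest amounts, together with Cdkn1a. In 2mo mice the log2 difference was -4.16 (SE 0.51) for Ccnd2, -3.27 (SE 0.39) for Cdkn1a and -3.15 (SE 0.24) for Btg2, with adjusted p of at most 7.68e-11. All 3 were also called in Young and in 2moNoH mice.

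The remaining inhibitors differed less. Cdkn1b was lower in oocytes by -0.96 (SE 0.12) in 2mo and -0.69 (SE 0.09) in 2moNoH mice, both called. It stood at 0.00 (SE 0.28) in Young mice, where edgeR did not call Cdkn2c (-0.15, SE 0.40) or Cdkn2d (-0.76, SE 0.43) either. As an unscaled share of the counts, Cdkn1b in Young oocytes was at 49.8% to 62.7% of its cumulus level. Cdkn2d was called in Young mice by DESeq2 (-1.16, adjusted p = 0.00378) and by edgeR with RLE size factors (-1.18, adjusted p = 0.00665). Cdkn2c differed by -1.18 (SE 0.26) and Cdkn2d by -1.14 (SE 0.29) in 2mo mice. In 2moNoH mice Cdkn2c was called at -0.50 (adjusted p = 0.0411), a call lost with the mouse as a replicate block (adjusted p = 0.157), and Cdkn2d was not called (-0.34, adjusted p = 0.234).

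Cdkn2a and Cdkn2b, the INK4 genes named as marks of senescence, were at or near 0 in cumulus cells at every age. Cdkn2a had 1 count in 71 cumulus libraries of the first set, in a CR mouse, and 0 counts in 128 of the second. The 16 libraries of 14mo cumulus cells held 13583980 counts, which allows up to 0.221 CPM of Cdkn2a, and the 16 of Old cumulus cells allow up to 0.146 CPM. Cdkn2b had 10 counts in 7 cumulus libraries of the first set and 4 counts in 3 of the second, none of them in 9mo or 14mo mice. Those of the first set were 0 in Young, 5 in Middle, 2 in Old and 3 in CR mice, and Middle against Young had an unadjusted p of 0.0333 (edgeR adjusted p = 0.879). Thus no change with age was detectable at this depth. These limits cover counting error only.

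Oocytes did carry counts of both genes, at low levels. Cdkn2a had 52 counts in 32 of 73 oocyte libraries and 95 counts in 57 of 127, with at most 5 in a library. Cdkn2b had 95 counts in 43 of 73 and 202 counts in 93 of 127. Both passed the filter of the comparison of cell types only through the oocytes, so their calls there compare with 0 and are not read, and with filterByExpr neither was tested. In 2mo mice the per-mouse levels in oocytes ran from 0.110 to 0.605 CPM for Cdkn2a and from 0.508 to 1.09 CPM for Cdkn2b. No fold is given because the cumulus groups of these mice held 0 counts, apart from 1 count of Cdkn2b in 2moNoH.

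Genes around the members were read in lists of related genes. Since 69.0% of all genes were called in 2mo mice, the counts of calls say little about a list. In cumulus cells alone, 11 of 12 p53 regulators and 10 of 12 senescence-associated genes passed the filter on low counts. The largest differences may thus compare with a level near 0, and their sizes are not read. For Trp63 the difference was 11.05 in 2mo and 7.75 in 2moNoH mice. Of 12 p53 regulators and kin, 8 were higher and 2 lower in 2mo oocytes, led by the p53 relatives Trp63 (log2 difference 11.05) and Trp73 (10.70) and by Mdm4 (3.51), the partner of Mdm2. Of 29 p53 target genes tested, 8 were higher and 16 lower, among them Phlda3, which restrains the kinase Akt (-6.73), and the death receptor genes Eda2r (-6.24) and Tnfrsf10b (-6.19). Of 19 cyclins, kinases and related genes, 9 were higher and 7 lower, with Ccnb1, the cyclin of entry into M phase, at 3.17 and the D-cyclin kinases Cdk6 at -5.24 and Cdk4 at -3.23. Proliferation genes were 12 higher and 6 lower of 20, led by Birc5 (3.39), Plk1 (2.69) and Cdt1 (2.58). In the BTG and TOB family 2 were higher and 3 lower, Btg4, known for its part in clearing maternal mRNA, at 12.07, Btg3 at -4.00 and Tob2 at 2.5. Senescence-associated genes were 3 higher and 6 lower of 12, with the chemokine genes Cxcl1 at -7.21 and Ccl2 at 6.37 and the protease inhibitor gene Timp1 at -5.51. List medians ran from -1.09 for p53 targets to 1.65 for p53 regulators.

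Age was compared with 2 months in both sets, and no member was called in either cell type. In cumulus cells of Middle against Young mice, edgeR called 0 of 9 members tested and 0.00351% of genes, with 3 members at an unadjusted p under 0.05 and 0 called by DESeq2. For Old against Young cumulus cells 0 of 9 members were called (2 under 0.05, 0 by DESeq2), beside 0.0211% of genes. Old against Middle gave 0 of 9 (0 under 0.05, 0 by DESeq2) and 0% of genes. In the second set edgeR called 0 of 8 members at 4 months (2 under 0.05, 0 by DESeq2, 0% of genes), 0 of 8 at 9 months (1 under 0.05, 0 by DESeq2, 0.0963%) and 0 of 8 at 14 months (2 under 0.05, 0 by DESeq2, 0.0791%). In oocytes the count was 0 of 10 for Middle against Young (0 under 0.05), Old against Young (1 under 0.05) and Old against Middle (1 under 0.05), where 0% of genes were called, and DESeq2 called 0 in each. It was also 0 of 10 at 4 months (0 under 0.05, 0% of genes), 9 months (0 under 0.05, 0.0541%) and 14 months (1 under 0.05, 0.198%), with 0 by DESeq2 in each.

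Cdkn1a, the p21 gene, had lower means in cumulus cells of older mice in both sets, without passing the test. Levels were 14.5 and 12.2 CPM in Young, 14.2, 3.94, 8.59 and 7.21 in Middle and 7.48 and 6.09 in Old. In the second set they were 27.6, 25.3, 24.3, 19.0 and 8.95 CPM in 2mo and 14.6, 4.34, 4.85, 15.3 and 9.75 in 14mo, so that 1 mouse at 2 months lay among those at 14 months. The log2 difference was -0.95 (SE 0.47, adjusted p = 1.0) for Old against Young and -1.03 (SE 0.42, adjusted p = 0.584) for 14mo against 2mo. At 4 and 9 months it was -0.81 (SE 0.36) and -0.78 (SE 0.44). Within the second set the 14mo difference was -1.70 among complexes whose labels begin with B1 (3 against 3 mice) and -0.16 among those beginning with B2 (2 against 2). In oocytes Cdkn1a stood at 0.639 to 2.69 CPM in Young, Old, 2mo and 14mo mice, and the differences were -0.04 (SE 0.46) for Old against Young and -0.11 (SE 0.34) for 14mo against 2mo.

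Btg2 in cumulus cells was lower than in Young in each older group of the first set but not in the second. Young mice had 470 and 451 CPM, Middle mice 190, 109, 390 and 75.6 CPM and Old mice 200 and 243 CPM, so the groups did not overlap with Young. The log2 difference was -1.31 (SE 0.46, adjusted p = 0.879) for Middle and -1.06 (SE 0.55, adjusted p = 1.0) for Old. In the second set 2mo mice had 327, 330, 275, 277 and 169 CPM and 14mo mice 298, 346, 201, 288 and 234 CPM, a log2 difference of -0.01 (SE 0.27). The difference between the sets in the change to 14 months was -1.04 (SE 0.58, adjusted p = 1.0). With libraries as units Btg2 was called in both comparisons of the first set (adjusted p = 3.95e-04 and 0.0203), where 1.37% and 3.72% of genes were, but libraries of 1 mouse are not independent. In the same way 1 of 8 members, Ccnd2, was called in 14mo against 2mo cumulus cells (1.47% of genes), and in Old against Young oocytes Ccnd2 and Mdm2 were (2 of 10, 6.65% of genes).

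Ccnd2 had higher means in cumulus cells of the oldest mice. It stood at 788 and 767 CPM in Young and 1001 and 958 CPM in Old mice, with no overlap, and at 751, 629, 804, 858 and 744 CPM in 2mo and 1040, 1177, 1035, 859 and 834 CPM in 14mo mice, which overlapped. The log2 difference was 0.33 (SE 0.16, adjusted p = 1.0) in the first set and 0.38 (SE 0.18, adjusted p = 0.646) in the second, neither called. The second was 0.57 among B1 and 0.08 among B2 complexes.

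The other members of the cumulus cells did not pass the test with age either. Cdkn2c was at 5.75 and 10.7 CPM in Young and 14.3 and 16.9 in Old cumulus cells (log2 difference 0.83, SE 0.29, adjusted p = 1.0), but at 0.02 (SE 0.32) between 14mo and 2mo. Trp53 differed by -0.45 (SE 0.21) and -0.29 (SE 0.17), Cdkn1b by -0.35 (SE 0.24) and -0.23 (SE 0.14), Mdm2 by -0.27 (SE 0.23) and -0.08 (SE 0.18) and Cdkn2d by -0.37 (SE 0.33) and -0.26 (SE 0.33) in the first and second set. edgeR called none of them on the sums per mouse. Between libraries of Old and Young mice it called Cdkn1b (adjusted p = 0.00179), Cdkn2c (0.0435) and Ccnd2 (0.00480) beside Btg2. With mouse sums of Old and Young alone, which draws the spread from 4 labels, Btg2 (adjusted p = 8.95e-07) and Cdkn1a (0.0494) passed. In that fit 156 genes were called higher and 282 lower, of 27853 tested.

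**Figure D2:**
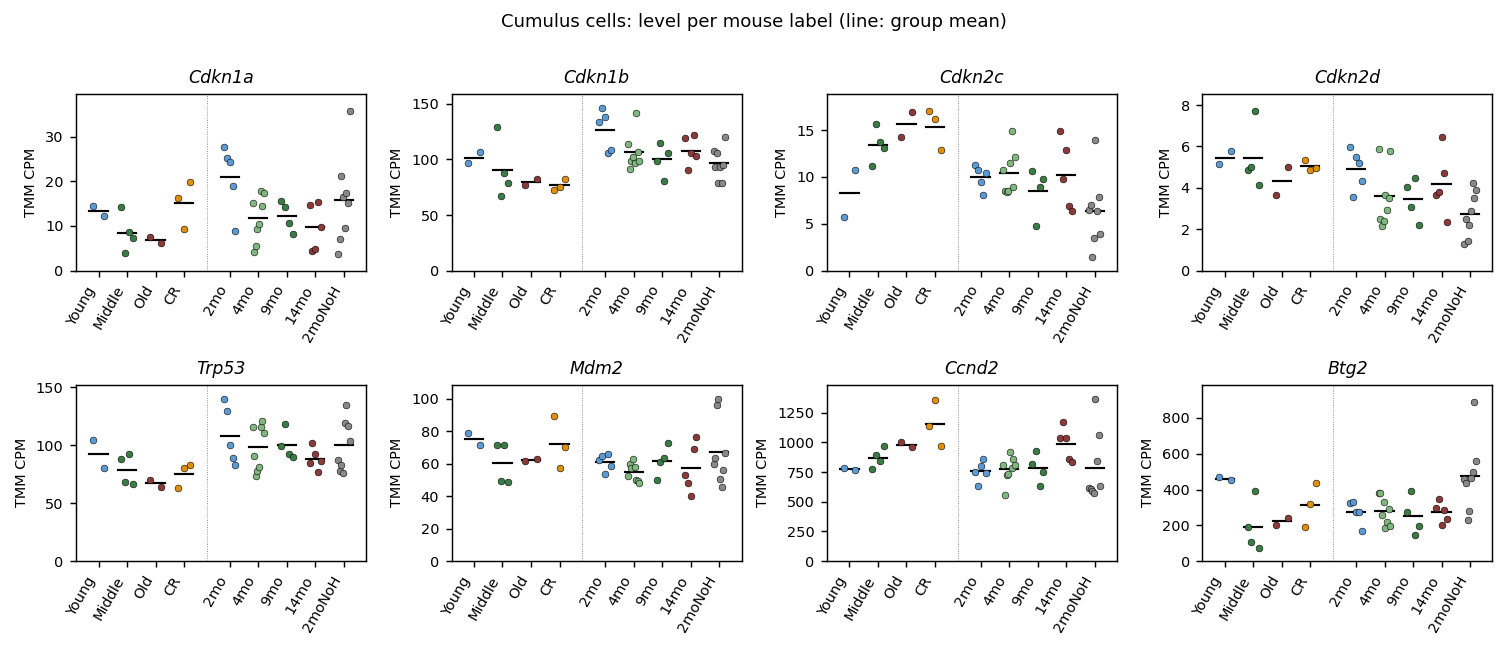
Levels of 8 members in cumulus cells (TMM-scaled CPM, linear axes from 0). Each point is 1 mouse label, the line is the group mean, and the dotted line separates the first from the second set. Btg2 lies between 451 and 470 CPM in Young mice and lower in Middle and Old, and Cdkn1a reaches 27.6 CPM in 2mo mice and at most 15.3 CPM in 14mo mice.

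In oocytes the members at higher levels differed by at most 0.11 (log2) between 2 and 14 months in the second set, Ccnd2 apart. Mdm2 ran from 129 to 144 CPM in 2mo and from 118 to 134 CPM in 14mo oocytes (log2 difference -0.09, SE 0.06), and Cdkn1b from 41.3 to 49.5 and from 40.9 to 43.7 CPM (-0.10, SE 0.07). Trp53 differed by -0.11 (SE 0.09) and Btg2 by 0.03 (SE 0.11). In the first set the Old against Young differences were 0.30 (SE 0.18) for Mdm2, 0.15 (SE 0.15) for Cdkn1b, 0.29 (SE 0.19) for Trp53 and -0.42 (SE 0.30) for Btg2. The difference between the sets in the change of Mdm2 was 0.44 (SE 0.14, edgeR adjusted p = 0.0872, DESeq2 adjusted p = 0.0247), so its call depended on the tool. edgeR called 0 of 10 members for that difference (3 under 0.05, 0.789% of genes), 0 of 10 for the change to 9 months in oocytes (1 under 0.05, 0% of genes), and 0 of 9 for each of both in cumulus cells (0 and 1 under 0.05, 0% of genes). DESeq2 called 0 members in the last 3.

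The level of Ccnd2 in oocytes moved with that of cumulus markers. Old mice had 333 (Old1_2) and 87.7 CPM and Young mice 63.7 and 68.1 CPM, a log2 difference of 1.68 (SE 0.63, adjusted p = 0.521) that was 0.37 (SE 0.65) without Old1_2. 14mo mice had 53.3, 128, 101, 47.1 and 35.6 CPM and 2mo mice 3.43, 8.17, 35.5, 53.9 and 42.2 CPM, a difference of 1.26 (SE 0.55, adjusted p = 0.440), which was 2.58 among B1 and -0.22 among B2 complexes. Across single oocytes of 1 group, Spearman's rho between Ccnd2 and the sum of 13 cumulus markers was 0.43 to 0.79 over the 9 groups (n = 14 to 39 oocytes). Both values of a point share library depth. Oocytes of 1 mouse are not independent, and differences between mice enter this rho. The same rho was -0.36 to 0.29 for Cdkn1a and -0.19 to 0.54 for Btg2.

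The size of the oocyte signal was set beside that of the markers. In 2mo mice the cumulus markers stood in oocytes at 0.587% to 1.40% of their cumulus level and Ccnd2 at 0.475% to 6.21%. In Old mice they stood at 2.68% to 6.37% and Ccnd2 at 9.10% to 38.6%. No cumulus marker was at 0 in Young, Middle, Old, CR, 2mo, 4mo, 9mo or 2moNoH oocytes, and Slc38a3 was at 0 in 14mo oocytes. The part of cumulus RNA in the oocyte level of Ccnd2 was not tested.

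**Figure D3:**
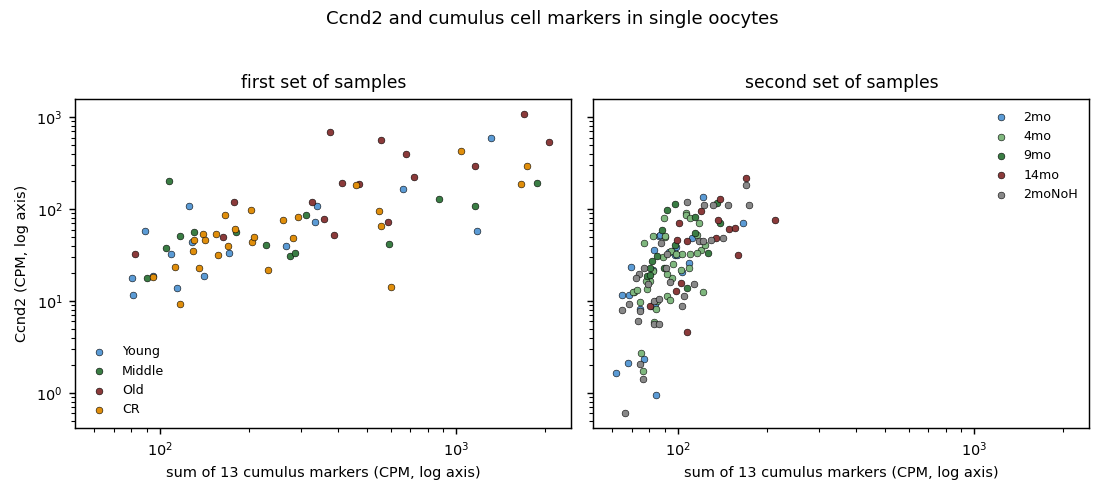
Ccnd2 against the sum of 13 cumulus markers in single oocytes, both in CPM on logarithmic axes, for the first (left) and second (right) set. Each point is 1 oocyte coloured by group. Oocytes with more marker RNA have more Ccnd2 in each group (Spearman's rho 0.43 to 0.79), and the marker sum reaches 2055 CPM in the first set and 213 CPM in the second.

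Hyperovulation was tested at 2 months, 2mo against 2moNoH, and the cumulus cells held the members with the smallest p. edgeR called 0 of 8 members tested there, with 4 at an unadjusted p under 0.05 and 2 called by DESeq2. Over all genes 1.69% were called and 14.6% were under 0.05. Between libraries edgeR called 3 of the 8 (Btg2, Cdkn1b and Cdkn2d), where 12.1% of genes were called. The median of the members was 0.25, beside -0.02 over all genes. In oocytes 0 of 10 were called (1 under 0.05, 0 by DESeq2), and 0% of genes.

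Btg2 had a lower mean in cumulus cells with hyperovulation, and its call depended on the tool and the model. Its levels were 327, 330, 275, 277 and 169 CPM in 2mo mice, and in the 8 2moNoH mice the lowest was 231, the median 462 and the highest 890 CPM, so that 2 of the 8 lay within the 2mo range. The log2 difference was -0.79 (SE 0.25, edgeR adjusted p = 0.0940, DESeq2 adjusted p = 0.0312), and it was -0.96 among B1 and -0.66 among B2 complexes. With the label start B1 or B2 as a covariate edgeR called it (-0.81, adjusted p = 0.0346). In oocytes, 2mo mice had 17.4 to 24.4 CPM and 2moNoH mice 16.2 to 21.7 CPM, a log2 difference of 0.22 (SE 0.10, adjusted p = 0.967). The difference between the cell types in this response was 1.05 (SE 0.29, adjusted p = 0.0966), and it was called by DESeq2 (0.0210) and with the mouse as a replicate block (0.98, adjusted p = 0.0369). For this difference edgeR called 0 of 10 members (2 under 0.05, 1 by DESeq2), and 0.322% of genes.

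All 4 inhibitors tested had higher means with hyperovulation, and none passed edgeR's test. Cdkn1b was at 134, 146, 138, 106 and 109 CPM in 2mo mice and at 79.0 to 120 CPM in 2moNoH mice, which overlapped (log2 difference 0.39, SE 0.12, edgeR adjusted p = 0.0872, DESeq2 adjusted p = 0.0358). Cdkn2d was at 3.57 to 5.97 CPM against 1.29 to 4.25 CPM (0.84, SE 0.29, adjusted p = 0.135), and Cdkn2c at 8.05 to 11.3 CPM against 1.44 to 13.9 CPM (0.65, SE 0.29, adjusted p = 0.283). The B1 and B2 differences were 0.52 and 0.16 for Cdkn1b, 0.46 and 1.35 for Cdkn2d and 0.39 and 1.01 for Cdkn2c. Cdkn1a had a mean of 21 CPM in 2mo and 15.7 CPM in 2moNoH mice (0.43, SE 0.36). Trp53 (0.12, SE 0.15), Mdm2 (-0.15, SE 0.16) and Ccnd2 (-0.06, SE 0.17) did not pass. Ccnd2 stood at -0.42 among B1 and 0.42 among B2 complexes. Without TMM scaling, the 13 cumulus markers summed to 8318.51 to 12840.31 CPM in 2mo and 4728.71 to 10768.32 CPM in 2moNoH cumulus cells. On the same scale 4 markers of theca cells, which lie outside the basal lamina of the follicle, summed to 126.56 to 181.81 and 150.16 to 285.11 CPM. The part of either in the differences was not tested.

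The lists of related genes are given beside all genes in these cumulus cells, of which 1.69% were called and 14.6% were under an unadjusted p of 0.05. Of 29 p53 target genes tested 1 was called, Gadd45a, known for growth arrest after damage, at 9.71 ± 1.10 CPM in 2mo (SD, n = 5) and 30.8 ± 17.0 CPM in 2moNoH cumulus cells (SD, n = 8), a log2 difference of -1.67 (adjusted p = 0.00297). Of 19 cyclins, kinases and related genes 2 were called as higher with hyperovulation, the phosphatase Cdc25a (0.54, adjusted p = 0.0313) and cyclin A2, Ccna2 (0.53, adjusted p = 0.0442). Of 20 proliferation genes 0 were called by edgeR, 12 were under an unadjusted p of 0.05 and DESeq2 called 4, with a median of 0.41. The 11 p53 regulators (2 under 0.05, 1 by DESeq2) and 5 BTG and TOB genes (0 under 0.05, 0 by DESeq2) held 0 calls by edgeR.

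**Figure D4:**
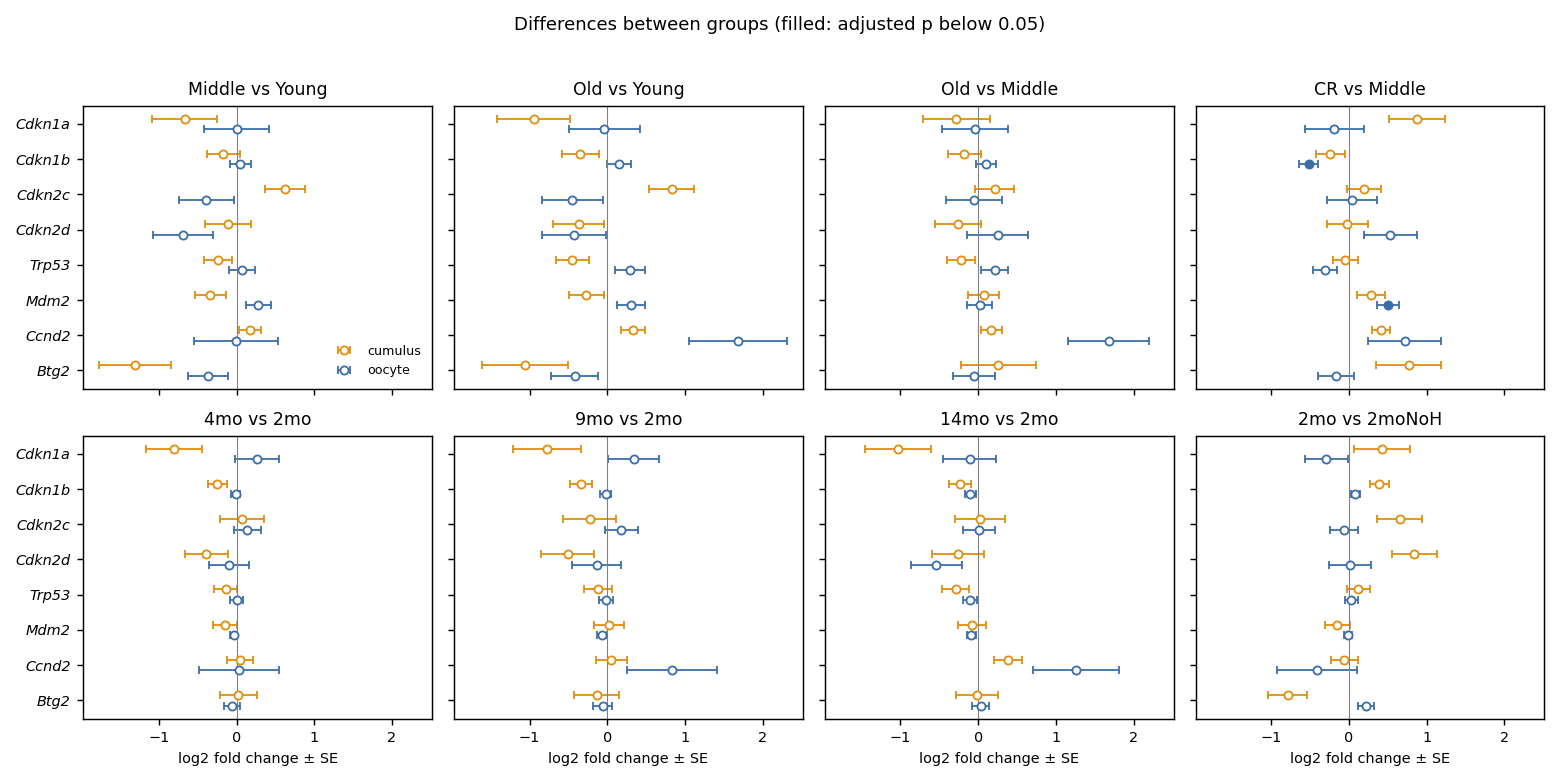
Log2 fold changes of 8 members (horizontal axis) with 1 SE either way in cumulus cells (orange) and oocytes (blue) for 8 comparisons. Filled points have an adjusted p below 0.05 in edgeR. The filled points are Cdkn1b (-0.52) and Mdm2 (0.50) in CR against Middle oocytes.

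CR against Middle gave the calls among the members outside the comparison of cell types. The CR libraries were deeper, with 2752043 to 4536690 counts in oocytes beside 1903858 to 2624876 in Middle oocytes. In cumulus cells they held 1568223 to 2501005 counts beside 848243 to 1269680. Diet and such differences between the libraries cannot be told apart here. In CR against Middle oocytes, edgeR called 2 of 10 members, 1 higher and 1 lower, where 7.14% of all genes were called. Cdkn1b was at 38.5, 40.8 and 42.0 CPM in CR and 59.4, 54.5, 59.5 and 58.5 CPM in Middle oocytes, with no overlap, and fell by 0.52 on the log2 scale (SE 0.12, adjusted p = 0.0185). Mdm2 was at 195, 177 and 198 CPM in CR and 115, 141, 166 and 120 CPM in Middle oocytes, also without overlap, and rose by 0.50 (SE 0.14, adjusted p = 0.0409). Within the first set, Cdkn1b in CR oocytes also lay below Young (59.4 and 52.6 CPM) and Old (64.4 and 59.2 CPM) oocytes. Mdm2 lay above them (104 and 117, and 137 and 136 CPM). In the second set, whose levels were scaled separately, Cdkn1b of mice fed ad libitum overlapped with CR. It ran from 39.5 to 48.3 CPM in 9mo and from 40.9 to 43.7 CPM in 14mo oocytes. Mdm2 ran from 117 to 135 CPM in 9mo oocytes.

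On simulated data this comparison had the most false calls of those simulated, above the nominal rate. Neither call held without any 1 of the 3 CR mice (adjusted p of 0.0730 to 0.0862 for Cdkn1b and 0.0847 to 0.148 for Mdm2), and that of Mdm2 was also lost without Middle1, Middle2 or Middle4 (0.0861 to 0.118). Trends of each mouse sum with gene length and GC content were also removed, an alternative chosen after the data were seen. Cdkn1b was then at -0.79 (adjusted p = 6.80e-04) and Mdm2 at 0.37 (0.0551). The split of genes called changed from 1256 higher and 815 lower to 1037 and 1008. With the left-out complex included Cdkn1b was at -0.81 (adjusted p = 0.106) and Mdm2 at 0.67 (0.0242). With the share of cumulus markers as a covariate both were called (0.0105 and 0.00552).

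Trp53 was at 28.1, 21.8 and 22.1 CPM in CR and 30.9, 31.0, 23.9 and 30.7 CPM in Middle oocytes, which overlapped (log2 difference -0.31, SE 0.15, adjusted p = 0.252). The overlap rests on 23.9 CPM alone, from Middle3, of which 1 oocyte was left. Between libraries Trp53 was called (-0.45, adjusted p = 3.43e-04), where 28.2% of genes were. Ccnd2 (0.72, SE 0.47), Cdkn2d (0.53, SE 0.34), Btg2 (-0.17, SE 0.23), Cdkn1a (-0.19, SE 0.38) and Cdkn2c (0.04, SE 0.32) were not called in these oocytes. The call of Ccnd2 and its direction depended on the setting, since it was called without a filter (adjusted p = 2.16e-04) and stood at -0.77 (adjusted p = 0.580) with the left-out complex included. Neither were Cdkn2a and Cdkn2b, with 12 and 39 counts in 27 CR oocytes and 8 and 22 in 14 Middle oocytes.

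Over all genes 7.14% were called in CR against Middle oocytes, 1256 higher and 815 lower. Of the p53 regulators, 3 of 11 tested rose in CR oocytes and 0 fell. Mdm4, which holds p53 inactive, was at 3590 ± 586 CPM in CR (SD, n = 3) and 1913 ± 148 CPM in Middle oocytes (SD, n = 4), a log2 difference of 0.91 (adjusted p = 0.00261). The deubiquitinase gene Usp7, whose product stabilises Mdm2, rose by 0.54 and the damage kinase gene Atm by 0.70. With the length and GC trends removed Mdm4 was at 0.55 (adjusted p = 0.0102), Usp7 at 0.30 (0.0624) and Atm at 0.31 (0.263). Of 29 p53 targets 3 rose and 1 fell, with a median of 0.01. Perp, a p53 target of cell death, rose by 1.57 and the ribosomal protein gene Rps27l by 0.86, while Plk3 fell by 1.29, and these 3 were also called with the trends removed.

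Of 20 proliferation genes 1 rose and 2 fell (median -0.09), where 7.14% of all genes were called. The kinase gene Aurkb was at 17.0 ± 1.26 CPM in CR (SD, n = 3) and 28.1 ± 2.66 CPM in Middle oocytes (SD, n = 4), a log2 difference of -0.73, and Rrm2, a subunit of ribonucleotide reductase, fell by 0.52. Top2a rose by 0.56, a call lost with the trends removed (0.26, adjusted p = 0.173). edgeR called 0 of 19 cyclins, kinases and related genes (5 under 0.05, 1 by DESeq2), 0 of 5 BTG and TOB genes (0 under 0.05, 0 by DESeq2) and 0 of 12 senescence-associated genes (1 under 0.05, 0 by DESeq2). The median over all genes tested was 0.02.

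In CR against Middle cumulus cells edgeR called 0 of 9 members tested (2 under 0.05, 0 by DESeq2), where 0.0772% of genes were called. Ccnd2 was at 1137, 1359 and 969 CPM in CR and 778, 898, 842 and 969 CPM in Middle mice (log2 difference 0.41, SE 0.12, adjusted p = 0.271). Cdkn1a was at 16.2, 9.34 and 19.9 CPM against 14.2, 3.94, 8.59 and 7.21 CPM (0.87, SE 0.36, adjusted p = 0.450), and Btg2 at 189, 318 and 437 CPM against 190, 109, 390 and 75.6 CPM (0.77, SE 0.42, adjusted p = 0.581). All 3 overlapped between groups. Between libraries 2 of these members, Btg2 and Ccnd2, were called, and 3.45% of genes. Mdm2 (0.28, SE 0.18) and Cdkn1b (-0.24, SE 0.19) had the sign they had in oocytes. For the difference between the cell types in the response to calorie restriction, edgeR called 0 of 10 members (0 under 0.05, 0 by DESeq2) and 0.453% of genes. The difference was 0.52 (SE 0.29, adjusted p = 0.517) for Mdm2 and 0.01 (SE 0.31, adjusted p = 1.0) for Cdkn1b. Its median over all genes tested was 0.19, and the values of the members were not corrected for that.

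**Figure D5:**
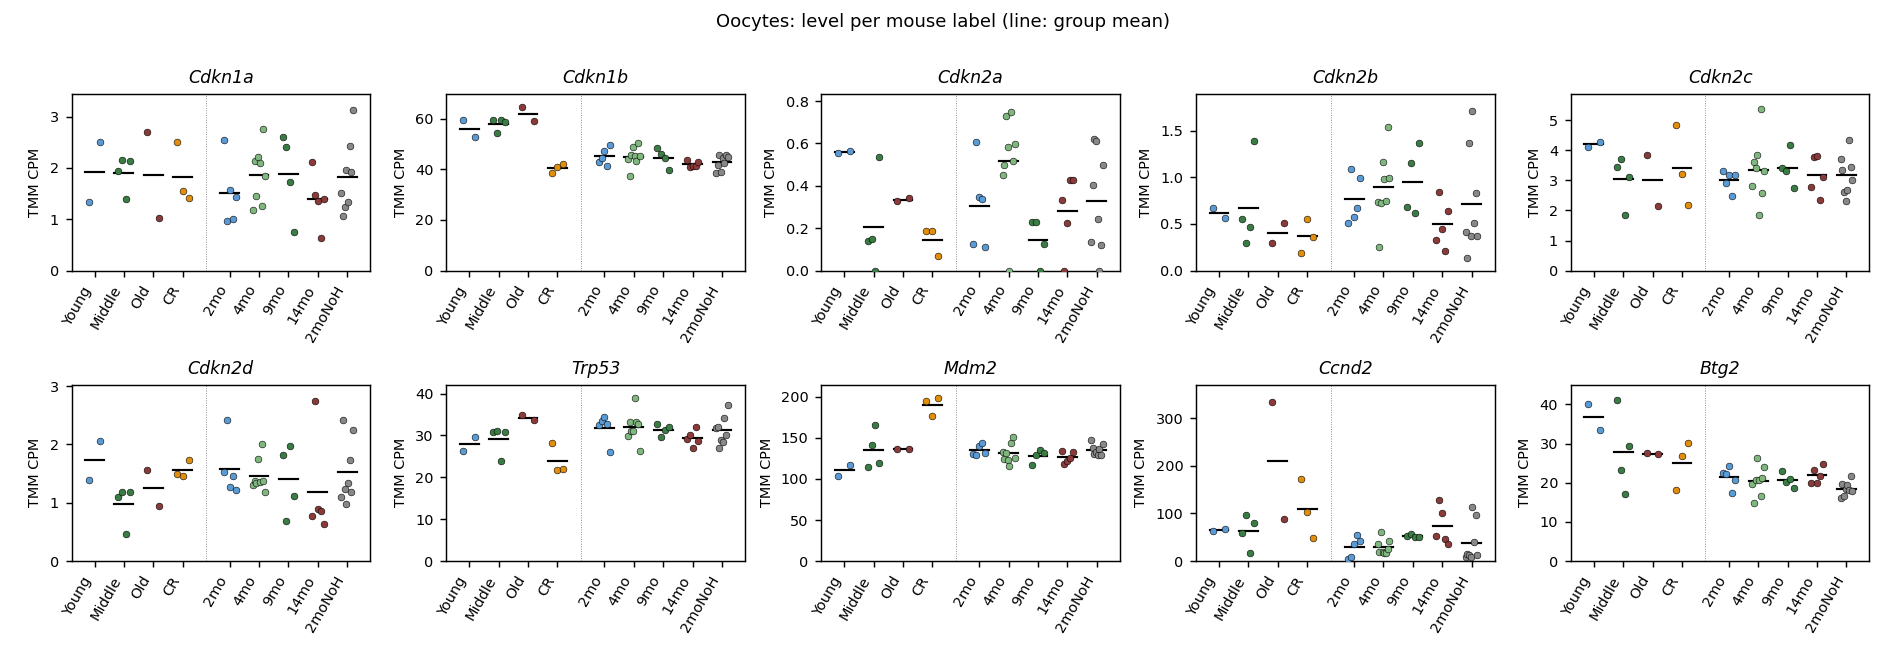
Levels of the 10 members in oocytes (TMM-scaled CPM, linear axes from 0). Each point is 1 mouse label, the line is the group mean, and the dotted line separates the first from the second set. CR oocytes lie lowest in the first set for Cdkn1b (38.5 to 42.0 CPM) and highest for Mdm2 (177 to 198 CPM), and Ccnd2 of Old1_2 stands at 333 CPM.

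The cumulus levels of 3 members were also compared with those of 10468 other genes over the 30 mice of the second set, as a description. Nearest to Btg2 were Ttll3 (Spearman's rho 0.83), Arpc4 (0.81), the immediate early gene Nr4a1 (0.79), Isca1 (0.76) and Fosl2 (0.75), a partner in the AP-1 factor. Nearest to Ccnd2 were Smim1 (0.82), Gm43126 (0.82), Trim62 (0.80), the retinol transporter gene Stra6 (0.80) and Cenpx (0.77). Gm43126 lies antisense to Ccnd2 and shares 372 exonic bases with it, so their reads may not be told apart. Nearest to Cdkn1a were Map7d1 (0.79), Mgrn1 (0.76), Vezf1 (0.74), Mtmr3 (0.74) and Rab31 (0.73). All points share the set of mice, the libraries and their depth. Differences between the groups and between B1 and B2 labels also enter these rho values, and their part was not tested.

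On GRCm38, with the GENCODE vM21 annotation, the 10 genes lie at chr17:29090976-29100727 (Cdkn1a, plus strand), chr6:134920401-134925513 (Cdkn1b, plus), chr4:89274471-89294653 (Cdkn2a, minus), chr4:89306299-89311039 (Cdkn2b, minus), chr4:109660876-109667189 (Cdkn2c, minus), chr9:21288410-21291407 (Cdkn2d, minus), chr11:69580359-69591873 (Trp53, plus), chr10:117688875-117710758 (Mdm2, minus), chr6:127125162-127152193 (Ccnd2, minus) and chr1:134075170-134079120 (Btg2, minus). Cdkn2a and Cdkn2b are neighbours on chromosome 4. Cdkn1a shares 273 exonic bases with AC167363.2 and Ccnd2 368 with 9330179D12Rik, both on the opposite strand, and counts over these bases are uncertain. Values were not whole in 42.3% to 58.9% of libraries with counts for Trp53 and Ccnd2 and in 11% to 50.7% for Mdm2.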

How the data were processed

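Per the labels and the methods of the study, reads were trimmed with Fastq-mcf, mapped by HISAT2 2.0.5 on GRCm38 and assigned by featureCounts 1.5.1 to GENCODE vM15, multi-mapped reads included. The values the authors deposited are expected counts, since 36.8% (first set) and 35.1% (second set) of those above 0 were not whole. The design had taken them for plain counts. They were summed and then rounded. The authors also deposited RPKM values, of which those of the CR libraries were not used.

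Counts were summed per mouse label and cell type, because libraries of 1 mouse are not independent. The study compared libraries, which is an alternative here. Replicates are mouse labels, and p-values measure the spread between them. All classes of a set and cell type shared 1 fit in R 4.3.3 with edgeR 4.0.16 (TMM, quasi-likelihood F test). Genes needed a count in 5 or more libraries, and p-values were adjusted by Benjamini-Hochberg with a threshold of 0.05. Cumulus cells and oocytes of 1 mouse are paired by the label. The deviations of both from their group means correlated by -0.071 to 0.099 over mice of the first set and by -0.098 to 0.260 over those of the second. Alternatives were DESeq2 1.42.0, RLE size factors, other filters, all deposited libraries, libraries or mouse sums of 2 groups only, the label start (B1 or B2, whose meaning the labels do not give), the cumulus marker share, the mouse as a replicate block, each mouse left out and, added after the data were seen, removal of length and GC trends. On simulated data most genes given a large change were recovered, but false calls ran above the nominal rate in most comparisons simulated, most of all in CR against Middle oocytes.

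The members, the lists of related genes, the markers and the alternatives were chosen with earlier results of these data known. All members are named, and of each list up to 3 called genes with the largest change in the comparisons where lists are described. The genes most like a member were sought among those with a mean of at least 8 CPM, and 5 are named. Of 43633 identifiers, 43429 had a symbol. Upstream windows came from RefSeq (GRCm38.p6) for 9 of the 10 members, 12 windows in all. Limits for a count of 0 (3 counts) cover counting error only, as no molecular identifiers were used. The result of 1 list in the comparison of hyperovulation is not reported here.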

Additional observations from a re-analysis of the deposited data

Results flagged for a closer look

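Of 109 groups of 4 to 10 mouse labels, 7 held a label far from the rest of its group, and chance flags about 1 in 20 groups. In oocytes of the Middle group, Middle3 was lowest for Cdkn2d at 0.464 CPM (1 count, next lowest 1.10) and for Trp53 at 23.9 CPM (next lowest 30.7). This mouse also held the complex that was left out, after which 1 oocyte stood for it. In 4mo cumulus cells Cdkn1b was highest in mouse 4mo3 at 142 CPM, with the next at 114 CPM. In 2mo oocytes Cdkn2d was highest in 2mo2 at 2.42 CPM (next 1.52) and Trp53 lowest in 2mo36 at 26.1 CPM (next 32.4). Cdkn2a was 0 in the oocytes of 4mo29, where the other 7 mice had 0.451 to 0.749 CPM. In 14mo oocytes Cdkn2d was highest in 14mo38 at 2.74 CPM (13 counts, next 0.900).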

How the results depend on the processing

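With libraries as units and 2 groups only, edgeR called 1 member in cumulus Middle against Young, 4 in cumulus Old against Young (Btg2, Ccnd2, Cdkn1b and Cdkn2c), 2 in cumulus CR against Middle, 2 in oocyte Old against Young, 1 in cumulus 14mo against 2mo and 3 in cumulus 2mo against 2moNoH, where the sums per mouse gave 0. Mouse sums of the 2 groups only gave 2 in cumulus Old against Young, 1 in oocyte Old against Young and 1 in oocyte CR against Middle, where the spread comes from fewer mice. Over all genes these fits called 156 higher and 282 lower of 27853, 381 and 205 of 28383, and 1266 and 877 of 28837. Without a filter, Ccnd2 was called in oocyte Old against Young (1 member) and Old against Middle (1 member), and in CR against Middle beside Cdkn1b and Mdm2 (3 members). Of 35292 genes, 390 were then called higher and 415 lower, 121 and 44, and 1787 and 1584. In oocyte CR against Middle, 1 member was left with all deposited libraries and 1 with length and GC trends removed, and leaving out 1 mouse gave 0 to 2. Hyperovulation in cumulus cells gave 2 with DESeq2, 1 (Btg2) with the label start as a covariate and 0 to 1 with 1 mouse left out. The difference between cell types in the response to hyperovulation gave 1 (Btg2) with DESeq2 and 1 with the mouse as a replicate block, and the oocyte difference between sets at 14 months gave 1 with DESeq2. With the replicate block, Cdkn2c was lost between the cell types of 2moNoH mice, and the block changed no other call of a member. No member called by edgeR changed sign under an alternative run. All deposited libraries applied to the first set alone, and leaving out a Young or Old mouse left 1 sample that was assumed to vary like the other groups. Genes called in oocyte CR against Middle numbered 2071, against 3342 with DESeq2 and 7552 between libraries, and in cumulus 2mo against 2moNoH 492, against 1057 and 3090. In those oocytes 1787 were higher and 1584 lower without a filter, and 703 and 188 with all deposited libraries. In those cumulus cells the label start as a covariate gave 661 higher and 424 lower, filterByExpr 431 and 339, removed trends 419 and 391, and mouse sums of the 2 groups 122 and 111. The causes were not tested. Genes under about 1 CPM, Cdkn2a and Cdkn2b above all, are limited by depth.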
